A study of Mus musculus with 6 samples.

Results

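Ephrins, Slits and netrins are the cues that steer growing axons, and 37 mouse genes for these ligands and their receptors were followed in primary hippocampal cultures. The genes were taken by symbol from a fixed list. It held 9 EphA receptors, 5 EphB receptors, 5 ephrin-A and 3 ephrin-B ligands, 3 Slits, 4 Robo receptors, 3 netrins, and Dcc with 4 Unc5 receptors. All 37 were found, each on 1 row, among the 47086 loci of the expression table. Whole cultures from newborn WT and *Fmr1* KO mice, both labelled C57BL/6, were harvested at day 14 in vitro, with 3 RNA-seq libraries for each genotype. *Fmr1* encodes FMRP, an RNA-binding protein whose loss causes fragile X syndrome, and the comparison asks which transcripts differ without it. The KO allele is not named in the labels, and the litter behind each library is not stated in the labels or methods. For the mice of the study in general, the methods name male KO animals and WT littermates, bred from heterozygous mothers and WT fathers, but for the cultures they do not say which sex the pups were. The p-values therefore measure the spread between these 6 libraries, which may be partly technical.

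Eph receptors are receptor tyrosine kinases that bind ephrins on the surface of a neighbouring cell, and the ephrin can signal back into the cell that carries it. A-class ephrins are held in the membrane by a lipid anchor and B-class ephrins span it. Slits are secreted proteins that repel axons through Robo receptors. Netrins attract axons through DCC and repel them when UNC5 receptors take part. In the hippocampus these proteins are best known for guiding axons during development and for shaping dendritic spines and synapses afterwards.

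Levels are given in FPKM, a fragment number scaled to transcript length and library size, which allows genes of different length to be compared. The absolute depth of the libraries is unknown, and the replicate spread sets the precision of every value. The noncoding RNA Bc1 took 73.7% to 80.6% of the FPKM sum of a library. *Fmr1* itself stood at 19, 19.5 and 19.7 FPKM in WT and at 23.1, 21.8 and 18.5 FPKM in KO. Its RNA was not lower in KO (log2 difference KO minus WT 0.12, 95% interval -0.06 to 0.30, limma adjusted p = 0.536), so the level of the targeted gene does not check the labels. Markers of excitatory neurons (8 genes) and of astrocytes (10 genes) all had a mean above 1 FPKM. The summed excitatory markers lay between 856 and 894 FPKM in WT and between 894 and 960 FPKM in KO, without overlap before rounding. Camk2a, the most abundant of them, had means of 491 FPKM in WT and 548 FPKM in KO. Slc17a7, the next in level, went the other way without overlap, with means of 287 FPKM in WT and 276 FPKM in KO. Of the 8 genes, 5 had a log2 difference above 0 and 3 below. The summed astrocyte markers lay between 1769 and 2083 FPKM in WT and between 1831 and 2030 FPKM in KO. In such bulk cultures, fewer cells of a type and less RNA per cell cannot be told apart.

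Of the 37 genes, 32 reached a mean of 1 FPKM in at least one genotype and were tested. The other 5 were Epha1, between 0 and 0.0834 FPKM over the 6 libraries, Epha2, between 0.0813 and 0.312 FPKM, Efna4, between 0.43 and 0.839 FPKM, Robo3, between 0.211 and 0.438 FPKM, and Robo4, between 0.0375 and 0.175 FPKM. Robo4 is best known as a Robo receptor of blood vessels. The endothelial marker list was likewise near the floor in these cultures, with 8 of 9 genes under 1 FPKM in the mean over the 6 libraries, Cldn5 listed at 0 and a summed level between 3.84 and 4.08 FPKM in WT and between 2.41 and 3.09 FPKM in KO. Robo3 is known from commissural axons of the hindbrain and spinal cord, Epha1 and Epha2 from epithelia. A mean of 0.0321 FPKM for Epha1 stands beside 11.2 FPKM for Zyx, whose locus overlaps it.

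The promoters of the genes carried one feature that the list did not use. RefSeq promoter sequences of 300 bases (250 before and 50 after the start, GRCm38.p6) were matched by symbol for 32 of the 37 genes, and the dinucleotide CG was counted in each. Where a gene had more than 1 start (4 genes), the start with most CG was taken. The 27 tested genes with a promoter held 14 to 56 CG, with a median of 24. The 5 genes under 1 FPKM held 2 to 17 CG, with a median of 11. The median of all 32851 promoters was 7 CG, and 29.7% of them held more than 17, as did 19 of the 27 tested genes. The limit of 17 was set by the highest count of the 5 genes under 1 FPKM. The 32851 promoters hold every listed start and were not limited to tested loci, so these shares are not a like comparison. Printed here are the promoters of 3 genes to which the genotype comparison returns (Epha8, Efnb1 and Unc5a) and, for contrast, that of Robo4, the gene with the fewest CG. Capitals mark CG, and each sequence runs 5′ to 3′ on the strand of the gene.
Epha8, chr4:136956767-136957066, minus strand: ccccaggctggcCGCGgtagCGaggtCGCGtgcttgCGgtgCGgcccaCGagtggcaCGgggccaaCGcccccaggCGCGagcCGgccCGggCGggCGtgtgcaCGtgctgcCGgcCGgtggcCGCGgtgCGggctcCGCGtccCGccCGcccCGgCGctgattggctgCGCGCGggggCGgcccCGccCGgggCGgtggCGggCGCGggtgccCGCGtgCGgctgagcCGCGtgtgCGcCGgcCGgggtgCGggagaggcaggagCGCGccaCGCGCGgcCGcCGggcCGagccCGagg
Efnb1, chrX:99135811-99136110, plus strand: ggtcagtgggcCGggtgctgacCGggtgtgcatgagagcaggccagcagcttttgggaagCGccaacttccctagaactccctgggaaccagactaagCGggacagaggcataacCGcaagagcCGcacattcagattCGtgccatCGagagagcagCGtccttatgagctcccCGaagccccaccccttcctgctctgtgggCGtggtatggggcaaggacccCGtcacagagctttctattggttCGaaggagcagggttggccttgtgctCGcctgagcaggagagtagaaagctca
Unc5a, chr13:54949161-54949460, plus strand: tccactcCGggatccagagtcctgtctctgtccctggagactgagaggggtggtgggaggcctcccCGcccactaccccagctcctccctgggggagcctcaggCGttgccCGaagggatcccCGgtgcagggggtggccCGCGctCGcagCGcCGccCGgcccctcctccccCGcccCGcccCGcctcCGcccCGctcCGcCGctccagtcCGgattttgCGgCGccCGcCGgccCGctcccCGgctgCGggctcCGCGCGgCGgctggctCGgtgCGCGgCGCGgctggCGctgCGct
Robo4, chr9:37401722-37402021, plus strand: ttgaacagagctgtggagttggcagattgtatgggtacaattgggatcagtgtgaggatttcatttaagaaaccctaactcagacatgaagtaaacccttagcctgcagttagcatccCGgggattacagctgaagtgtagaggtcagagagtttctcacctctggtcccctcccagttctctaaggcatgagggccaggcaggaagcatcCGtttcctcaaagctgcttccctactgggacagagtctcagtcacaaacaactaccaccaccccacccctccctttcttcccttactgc
Epha8 held 56 CG, a count reached by 0.195% of all promoters. Unc5a held 37 CG, reached by 5.58%, and Efnb1 14, reached by 36.3%. Robo4 held 2, reached by 85.9%. A CG count is a description of these letters and says nothing of methylation, which was not measured.

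The ligand Efnb3 had the highest level of all, with 60.4, 59.1 and 51.5 FPKM in WT and 57.8, 52.1 and 54.9 FPKM in KO. Its mean of 56 FPKM lay at the 91.1 percentile of the 13195 tested loci, whose median was 10.2 FPKM. Efnb3 is a transmembrane ephrin known as a midline barrier for corticospinal axons. Next in order came the EphA receptors Epha5 (38.2 FPKM) and Epha4 (34.3 FPKM), then Slit1 (31.4 FPKM), Unc5a (26 FPKM) and Efna3 (24.9 FPKM). Efnb3 lay above Epha5 in all 6 libraries without overlap, but Epha5 overlapped Epha4, and Epha4 overlapped Slit1. Further down the order, the libraries of neighbours did not overlap between Efnb2 and Slit2, Unc5b and Unc5d, Unc5d and Efna2, Epha8 and Ephb4, or Efna1 and Efna4, and all other neighbours overlapped. The lowest tested gene was Efna1, at a mean of 1.16 FPKM.

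**Figure D1:**
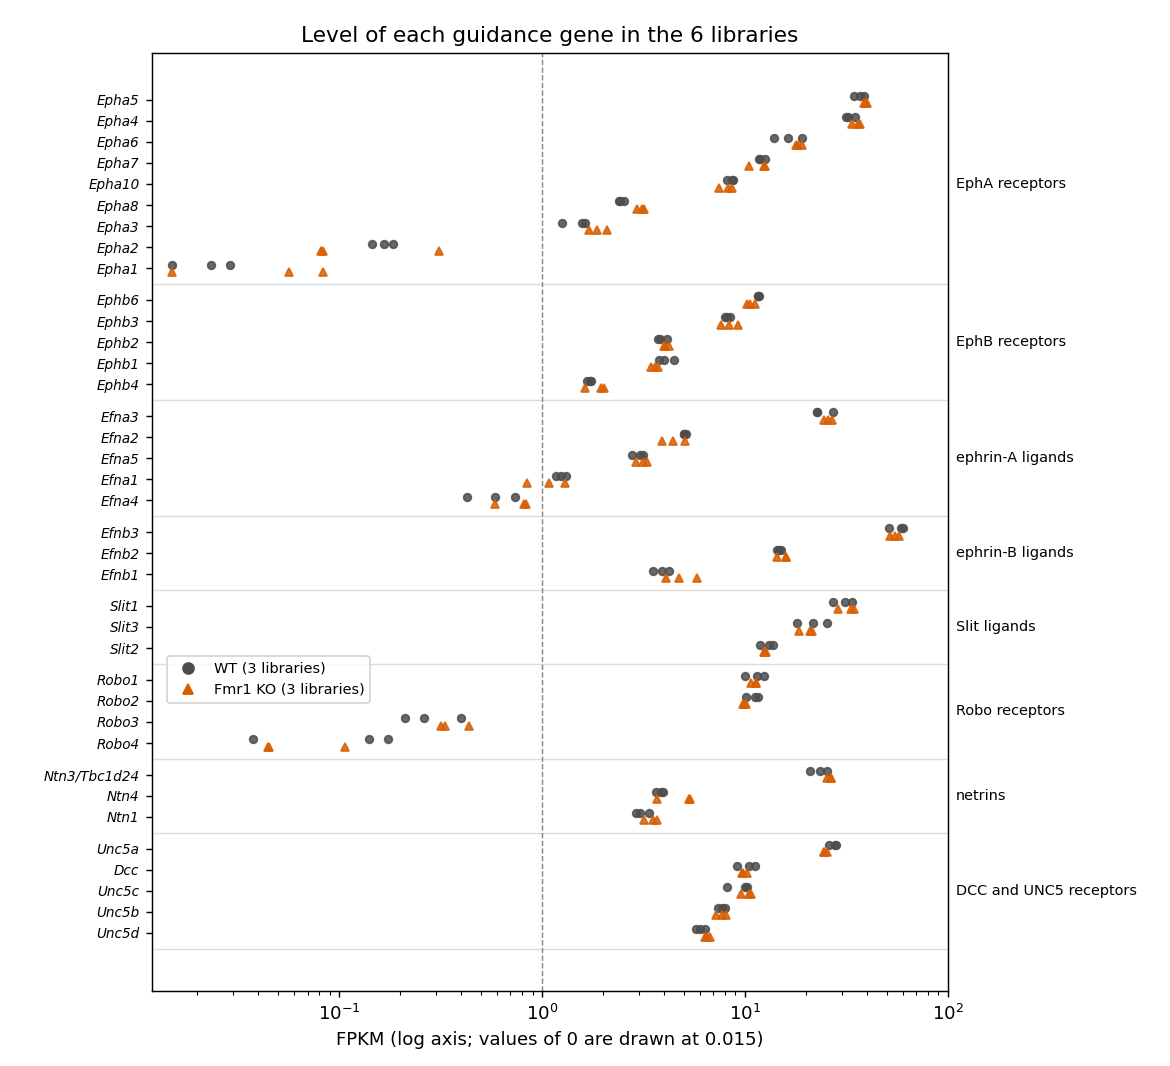
FPKM on a log axis for each of the 37 guidance genes, grouped by role, with 1 point for each library and WT and *Fmr1* KO in different colours. Efnb3, Epha5, Epha4 and Slit1 sit at or near the top of their groups, the points of the 2 genotypes lie close together for nearly all genes, and Epha1, Epha2, Efna4, Robo3 and Robo4 lie under 1 FPKM.

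Among the tested genes, levels ran from 1.69 FPKM (Epha3) to 38.2 FPKM (Epha5) in the EphA receptors and from 1.16 FPKM (Efna1) to 24.9 FPKM (Efna3) in the A-class ephrins. The Slits were all well expressed, at a mean of 31.4 FPKM for Slit1, 21 FPKM for Slit3 and 12.7 FPKM for Slit2. Their receptors Robo1 (11.2 FPKM) and Robo2 (10.5 FPKM) were nearly level. Summed over each role and averaged over the WT libraries, the EphA receptors made up 111 FPKM, the B-class ephrins 75.6 FPKM, the Slits 65.3 FPKM, DCC with the UNC5 receptors 60.8 FPKM, the A-class ephrins 34 FPKM, the EphB receptors 29.5 FPKM and the Robo receptors 22.6 FPKM. A-class receptors thus stood above EphB receptors, while B-class ligands stood above A-class ligands. The latter order rests on Efnb3, without which the B-class sum was 18.6 FPKM.

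Guidance genes that neighbour each other differed widely in level in the ephrin-A cluster and between Ephb6 and Epha1, and less in the other pairs. Efna1, Efna3 and Efna4 lie within chr3:89271730-89338028 (GRCm38, deposited loci), with gaps of 22.3 kb and 10.4 kb. Their mean levels were 1.16, 24.9 and 0.668 FPKM, so the gene in the middle stood far above both others. Robo4 and Robo3, 2.0 kb apart on chromosome 9, were both under 1 FPKM. Robo1 and Robo2, 844.5 kb apart on chromosome 16, stood at 11.2 and 10.5 FPKM. Ephb2 and Epha8, 93.4 kb apart on chromosome 4, stood at 3.99 and 2.77 FPKM. Ephb6 and Epha1, 729.1 kb apart on chromosome 6, stood at 11.2 and 0.0321 FPKM.

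Slit2 and Slit3 each hold a hairpin of the microRNA miR-218, which is cut from their introns and is known to act on Robo1. The RefSeq hairpins lie on the plus strand at chr5:48223942-48224051 (Mir218-1, in Slit2) and chr11:35616816-35616925 (Mir218-2, in Slit3). Both give the same mature sequence, shown with its seed, bases 2 to 8, in capitals.
mmu-miR-218-5p, chr5:48223966-48223986 and chr11:35616840-35616860: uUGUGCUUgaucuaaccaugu
The loci of both hairpins were listed at 0 FPKM in all 6 libraries, while their hosts stood at 12.7 and 21 FPKM. A listed 0 for so short a locus says nothing of the level of the mature microRNA.

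Between WT and *Fmr1* KO the guidance genes differed little. None of the 32 tested genes passed a limma adjusted p of 0.05, a call made for 0.265% of all 13195 tested loci, and the lowest adjusted p was 0.208, for Epha8. At an unadjusted limma p under 0.05 there were 4 genes, which is 12.5% of the 32 against 14.8% of all tested loci. Of these, 3 were higher in KO (Epha8, Efnb1 and the locus of Ntn3), beside 6.99% of all loci, and 1 was lower (Unc5a), beside 7.77%. The WT and KO libraries did not overlap in 6 genes, 18.8% against 21.1% of all loci. They were higher in KO for Epha3, Epha8 and Unc5d and lower for Ephb1, Ephb6 and Unc5a. All of these shares are near those of the whole table.

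The differences ran from -0.21 to 0.33 on the log2 scale, with a median of 0.06, beside a median of 0.005 and a central range (5th to 95th percentile) of -0.28 to 0.24 for all tested loci. In 18 genes the difference was above 0 and in 14 below. The 95% interval lay within 0.5 on the log2 scale (1.41-fold) in either direction for 27 of the 32 genes. The exceptions were Epha3, Epha8, Efna1, Efnb1 and Ntn4, all with means under 5 FPKM. The summed level of all 37 genes was 429 FPKM ± 19.8 (SD, n = 3) in WT and 438 FPKM ± 8.21 (SD, n = 3) in KO. This sum includes the Ntn3 locus, shared with Tbc1d24, at a mean of 23.3 FPKM in WT and 26.2 FPKM in KO.

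**Figure D2:**
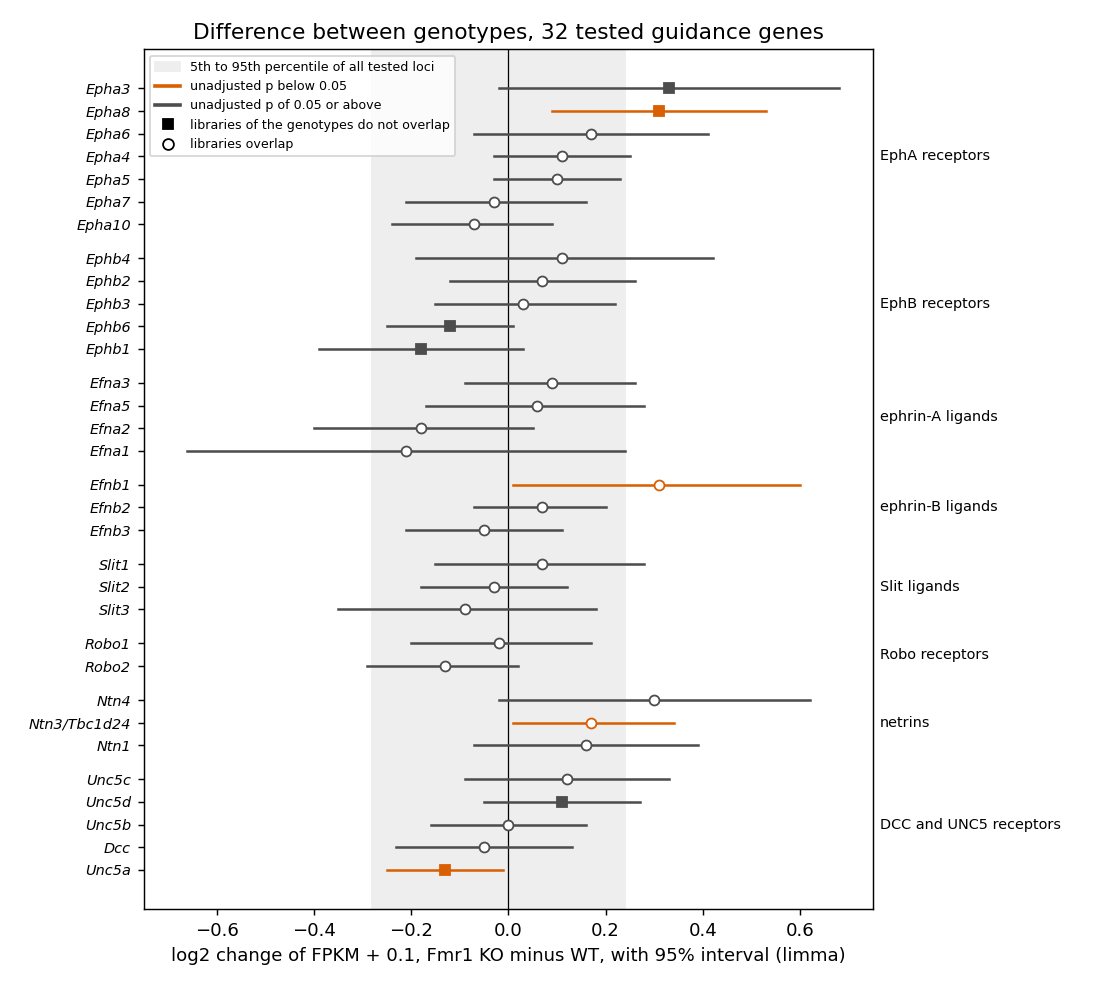
Log2 difference (KO minus WT, on log2(FPKM + 0.1)) of each of the 32 tested genes with its 95% interval from limma, grouped by role, over a grey band for the 5th to 95th percentile of all tested loci. Squares mark genes whose libraries do not overlap between genotypes and orange an unadjusted p under 0.05. The values lie between -0.21 and 0.33, and 4 intervals exclude 0, those of Epha8, Efnb1, the Ntn3 locus and Unc5a.

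EphA receptors held the gene with the lowest p. Epha8, a receptor known from axons of the superior colliculus, lies at chr4:136929419-136956816. It read 2.55, 2.41 and 2.42 FPKM in WT and 3.17, 2.94 and 3.12 FPKM in KO, so every KO library lay above every WT library. The mean was 2.46 FPKM ± 0.0759 (SD, n = 3) in WT and 3.08 FPKM ± 0.121 (SD, n = 3) in KO. Its log2 difference was 0.31 (SE 0.10, interval 0.09 to 0.53, limma p = 0.0106, adjusted p = 0.208, two-sided exact permutation p = 0.1). An exact p of 0.1 is the smallest that 3 against 3 libraries allow. The unadjusted limma p was under 0.05 in this fit and in every alternative in which Epha8 was tested, 14 settings in all, with differences from 0.24 to 0.34.

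Epha3, a receptor for A-class ephrins, had the largest log2 difference of the 32 genes. It read 1.25, 1.63 and 1.58 FPKM in WT and 1.87, 2.09 and 1.71 FPKM in KO. These do not overlap either, but at this low level the interval was wide (log2 difference 0.33, SE 0.15, interval -0.02 to 0.68, limma adjusted p = 0.367). Epha5, the most abundant EphA receptor, read 34.6, 38.9 and 37.1 FPKM in WT and 38.6, 39.6 and 40.2 FPKM in KO, with overlap (log2 difference 0.10, limma adjusted p = 0.448). Epha4, which binds ephrins of both classes and is known from adult hippocampal spines, differed by 0.11 (interval -0.03 to 0.25). Epha6 differed by 0.17 with a WT range of 14 to 19.2 FPKM. Its locus also carries Gm4660 and overlaps Arl6, at 12.3 FPKM. Epha7 and the kinase-inactive receptor Epha10 were at -0.03 and -0.07. In all, 5 of the 7 tested EphA receptors were above 0 and 2 below, with a median of 0.11, and their summed level was 111 FPKM ± 6.49 (SD, n = 3) in WT and 119 FPKM ± 2.74 (SD, n = 3) in KO.

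Among the EphB receptors, 2 had KO libraries entirely below the WT libraries. Ephb6, which also lacks kinase activity and was the most abundant EphB receptor, read 11.6, 11.6 and 11.7 FPKM in WT and 10.2, 10.6 and 11.2 FPKM in KO (log2 difference -0.12, interval -0.25 to 0.01, limma adjusted p = 0.392). Ephb1, known from retinal axons that stay on their own side at the optic chiasm, read 3.78, 4.02 and 4.49 FPKM in WT and 3.45, 3.73 and 3.6 FPKM in KO (-0.18, interval -0.39 to 0.03, limma adjusted p = 0.413). Neither passed an unadjusted p of 0.05. Ephb2, Ephb3 and Ephb4 were at 0.07, 0.03 and 0.11, all with overlapping libraries.

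Ephrin ligands were mostly alike in the 2 genotypes. Efnb3, the most abundant, differed by -0.05 (interval -0.21 to 0.11) and Efnb2 by 0.07. Efna3, the most abundant A-class ligand, read 27.1, 22.8 and 22.6 FPKM in WT and 26.8, 24.6 and 25.6 FPKM in KO, a difference of 0.09 with full overlap. Efna5 was at 0.06, Efna2 at -0.18 and Efna1 at -0.21, where the interval of -0.66 to 0.24 was the widest of the 32. Efnb1 was the exception among the ligands. It read 3.54, 3.93 and 4.22 FPKM in WT and 4.11, 4.72 and 5.8 FPKM in KO, means of 3.9 FPKM ± 0.337 and 4.88 FPKM ± 0.855 (SD, n = 3 each). The lowest KO library lay under the highest WT library, and the difference was 0.31 (SE 0.13, interval 0.01 to 0.60, limma p = 0.0438, adjusted p = 0.322, exact permutation p = 0.2). Without WT replicate 1, WT replicate 2, KO replicate 2 or KO replicate 3 the unadjusted p was above 0.05, and over all leave-one-out fits the difference ran from 0.18 to 0.42.

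Efnb1 (chrX:99136061-99149022) is the 1 guidance gene on the X chromosome, 30.4 Mb from *Fmr1*. Transcripts linked to sex were also compared. Xist, the X-inactivation RNA, read 59.9, 77.9 and 74.6 FPKM in WT and 53, 61.3 and 60.8 FPKM in KO, with overlap (log2 difference -0.27, limma adjusted p = 0.267, exact permutation p = 0.3). The Y-linked Eif2s3y read 9.26 to 9.68 FPKM in WT and 19.6 to 22.4 FPKM in KO, a log2 difference of 1.13 (limma adjusted p = 0.000183). Ddx3y, Kdm5d and Uty were also higher in KO, without overlap. Xist and these Y-linked genes were read in every library of both genotypes. The Y-linked levels thus differed along with genotype. The part of sex in the Efnb1 difference, or in any other difference between WT and KO given here, was not tested.

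No Slit or Robo had an unadjusted limma p under 0.05. Slit1 read 27.1, 33.8 and 31.2 FPKM in WT and 28.7, 34.4 and 33.4 FPKM in KO (log2 difference 0.07, interval -0.15 to 0.28). Slit2 and Slit3 were at -0.03 and -0.09, and the Slit sum was 65.3 FPKM ± 7.96 in WT and 65 FPKM ± 4.63 in KO (SD, n = 3 each). Robo1, with 10, 12.4 and 11.5 FPKM in WT and 10.7, 11.3 and 11.3 FPKM in KO, was at -0.02 (interval -0.20 to 0.17). Robo2 was at -0.13 (interval -0.29 to 0.02, limma p = 0.0819, adjusted p = 0.406, exact permutation p = 0.2), with 2 of its 3 KO libraries below every WT library.

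Netrins and their receptors gave the remaining differences. Netrin-1, the founding member of the family, was low at 2.92, 3.03 and 3.38 FPKM in WT and 3.19, 3.54 and 3.7 FPKM in KO (log2 difference 0.16, interval -0.07 to 0.39). Ntn4, a netrin of basement membranes, read 3.66, 3.96 and 3.87 FPKM in WT and 3.69, 5.37 and 5.34 FPKM in KO. Thus 2 KO libraries stood apart from the WT range and the other lay inside it (log2 difference 0.30, interval -0.02 to 0.62, limma p = 0.0654, adjusted p = 0.375, exact permutation p = 0.3). Without KO replicate 1, the library inside the WT range, the difference was 0.47 (limma adjusted p = 0.126), and over the leave-one-out fits it ran from 0.21 to 0.47. The Ntn3 value cannot be attributed to that gene, because its locus (chr17:24175431-24209387) is shared with Tbc1d24 on the same strand and the table gives 1 FPKM value for both. That locus read 20.9, 25.5 and 23.6 FPKM in WT and 25.4, 26.7 and 26.7 FPKM in KO (log2 difference 0.17, SE 0.07, interval 0.01 to 0.34, limma p = 0.0436, adjusted p = 0.322, exact permutation p = 0.2). The unadjusted p was above 0.05 without WT replicate 1, WT replicate 3, or any KO library, and over the leave-one-out fits the difference ran from 0.10 to 0.24.

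Unc5a, a netrin receptor of the repulsive kind, was the 1 gene with a lower level at an unadjusted p under 0.05. Located at chr13:54949411-55021476, it was the most abundant of the DCC and UNC5 receptors. It read 28, 27.8 and 25.9 FPKM in WT and 24.7, 24.6 and 25.3 FPKM in KO, so the groups did not overlap, but WT replicate 3 lay close to the KO libraries. The means were 27.2 FPKM ± 1.18 and 24.9 FPKM ± 0.383 (SD, n = 3 each), and the log2 difference was -0.13 (SE 0.05, interval -0.25 to -0.01, limma p = 0.0337, adjusted p = 0.295, exact permutation p = 0.1). Its unadjusted p was above 0.05 in every leave-one-out fit but that without WT replicate 3, with differences from -0.17 to -0.11.

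Dcc, the attractive netrin receptor, read 9.19, 11.2 and 10.5 FPKM in WT and 9.82, 10.3 and 9.7 FPKM in KO, a difference of -0.05 with an interval of -0.23 to 0.13. Unc5d was higher in every KO library, at 5.77, 6.39 and 6.02 FPKM in WT against 6.76, 6.49 and 6.4 FPKM in KO, but by little (0.11, interval -0.05 to 0.27, limma adjusted p = 0.507). Unc5b and Unc5c were at -0.00 and 0.12.

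**Figure D3:**
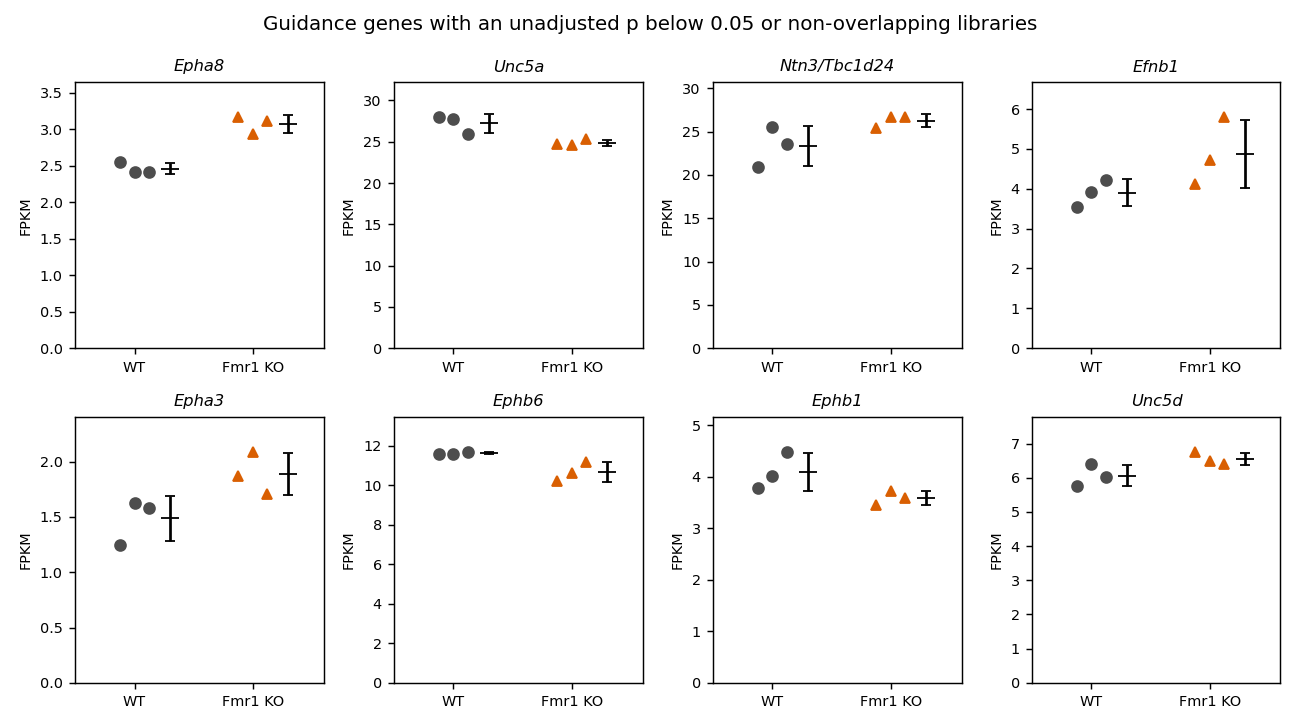
FPKM in each library for the 8 guidance genes with an unadjusted limma p under 0.05 or with no overlap between genotypes, 1 panel for each gene, with points for WT and triangles for KO libraries and the mean ± SD (n = 3) beside them on an axis from 0. WT and KO overlap for Efnb1 and the shared Ntn3 and Tbc1d24 locus and are apart for the other 6 genes.

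Marker genes of other cell types were read in the same fit, and no marker on any list passed an adjusted p of 0.05 (lowest 0.0753, limma). The marker lists were chosen with earlier results of these data known, so the shares given here are descriptions. Microglial markers summed to between 16.6 and 19 FPKM in WT and between 8.34 and 12.3 FPKM in KO. Of the 12, 11 had a mean over the 6 libraries under 1 FPKM, and Tmem119 and Aif1 were listed at 0 in every library. The 4 tested were all lower in KO at an unadjusted p under 0.05, a share of 100% beside 14.8% of all loci. Of these, C1qa, C1qb and C1qc reached the minimum of 1 FPKM through WT alone. Their means were 1.43, 1.05 and 1.3 FPKM in WT and 0.399, 0.163 and 0.357 FPKM in KO. A lower KO level was thus partly a condition of being tested, and no conclusion is drawn from this share. Markers of dividing cells summed to between 43.7 and 51 FPKM in WT and between 54.9 and 59.3 FPKM in KO, with 5 of 8 higher at an unadjusted p under 0.05 (62.5%). Fibroblast and mural markers summed to between 62.2 and 65.2 FPKM in WT and between 53.9 and 59.5 FPKM in KO. Of 5 tested, 1 was lower at an unadjusted p under 0.05 (20%). It was Dcn, the largest part of this sum, with means of 42 FPKM in WT and 34.8 FPKM in KO. Of the 5, 2 had a log2 difference above 0 and 3 below. Col1a2, not tested, was higher in KO without overlap, with means of 0.303 and 0.485 FPKM. Inhibitory, astrocyte and oligodendrocyte sums overlapped, but these sums rest mainly on abundant genes. Among 8 tested inhibitory markers, Lhx6, Dlx1 and Dlx2 were higher in KO without overlap and Vip was lower, all 4 at an unadjusted p under 0.05. Of the oligodendrocyte lineage, Pdgfra and Olig2 were higher, and of the astrocytes, S100b and Gja1 were lower, at the same threshold. Of the excitatory markers, Camk2a was higher and Prox1 lower at this threshold, both without overlap. The part of these cell types in the guidance gene differences was not tested.

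The deviations of WT replicates 1 and 2 went along with the length of the gene. WT replicate 1 was the lowest of the 6 libraries in 16 of the 32 tested genes (50%), beside 24.2% of all tested loci. Guidance genes are often very long, and 11 of the 32 lie in loci of at least 300 kb (Epha3, Epha5, Epha6, Ephb1, Slit2, Slit3, Robo1, Robo2, Dcc, Unc5c and Unc5d), the longest being Robo2 at 1555.3 kb. In all 11, WT replicate 1 lay below the mean of the other WT libraries, by a median of -0.24 on the log2 scale (range -0.38 to -0.10). For all 646 tested loci of that length the median was -0.10. For the 9 guidance genes in loci under 30 kb it was -0.02.

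WT replicate 2 deviated the other way in the 11 long genes, with a median of 0.18 and 1 gene below 0. One-sided deviations were not confined to WT, since KO replicate 1 had 10 of the 11 below 0, by a smaller median of -0.05. Across the 32 genes, Spearman's rho between locus length and deviation was -0.59 for WT replicate 1 and 0.59 for WT replicate 2, against -0.30 and 0.26 across all tested loci. It was 0.26 for WT replicate 3 and lay between -0.09 and 0.09 in the KO libraries. The deviations share the 3 WT libraries and genes are not independent replicates, so these are descriptions. Some of the long genes moved with the choice of WT library. Slit3 read 18, 25.3 and 21.7 FPKM in WT and 18.4, 21.4 and 21 FPKM in KO, with a log2 difference of -0.09 from all libraries, -0.21 without WT replicate 1 and 0.03 without WT replicate 2. Epha6 likewise went from 0.17 to 0.06 without WT replicate 1 and to 0.29 without WT replicate 2. Shorter genes moved as well, among them the Ntn3 locus. Removing the trend with length left the unadjusted p of Epha8, Efnb1, Ntn3 and Unc5a under 0.05 and added Robo2.

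**Figure D4:**
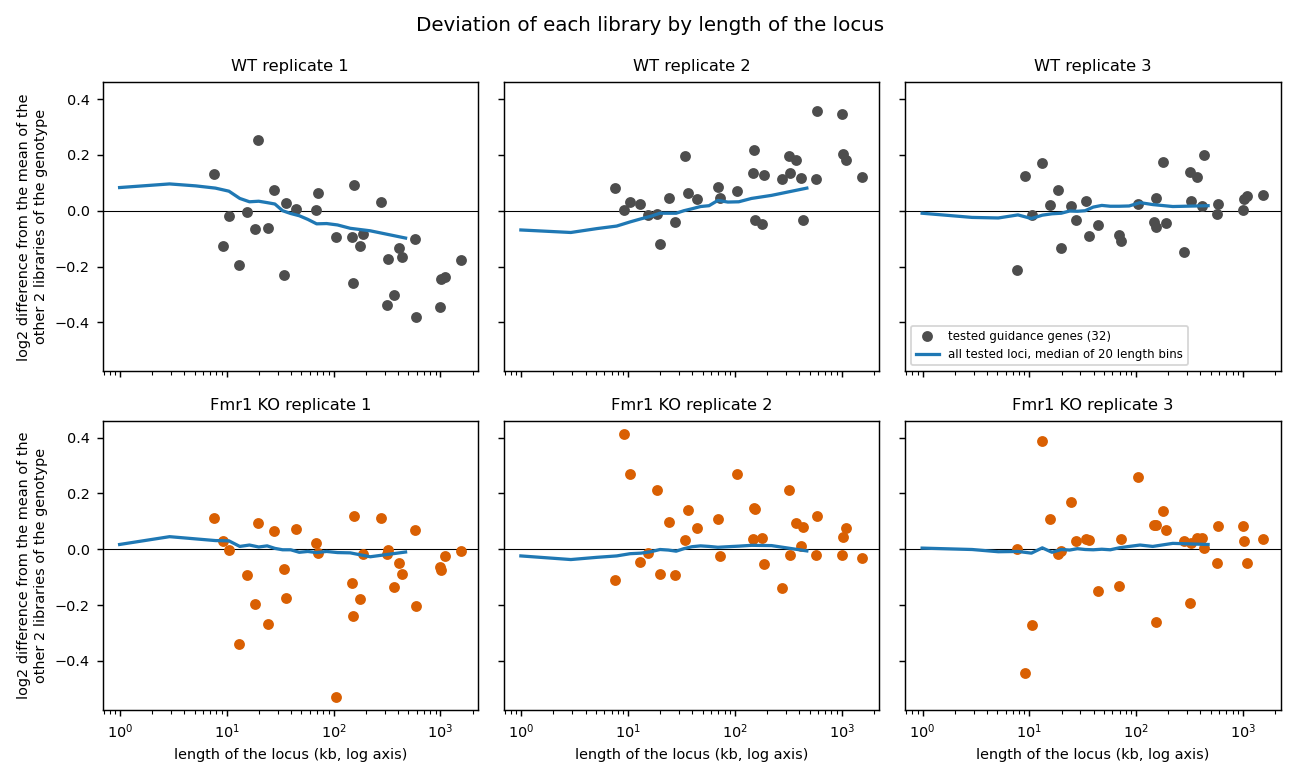
Deviation of each WT and KO library from the mean of the other libraries of its genotype (log2 scale) against locus length in kb on a log axis, with points for the 32 tested guidance genes and a line for the medians of all tested loci in 20 bins. In WT replicate 1 all 11 genes of at least 300 kb lie below 0, in WT replicate 2 all but 1 lie above 0, and in KO replicate 1 all but 1 lie below 0, closer to it.

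The genes around these ligands and receptors were read off the same fit. Of 67 pathway genes, 62 were tested, and 16 had an unadjusted limma p under 0.05 (25.8%, beside 14.8% of all loci), 11 higher and 5 lower in KO, with none under an adjusted p of 0.05. These genes were chosen with earlier results of these data known, so their share is a description and no test against all loci. The larger share also did not hold in every fit. Without KO replicate 2 the count was 7 (11.3% beside 10.1% of all loci), without KO replicate 3 it was 6 (9.68% beside 10.5%), and without a mean-variance trend it was 9 (14.5% beside 14%), all near the share of all loci. The median over the 62 was 0.03 on the log2 scale.

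Other ligands, receptors and binding partners of the same pathways held 6 higher and 0 lower genes among 12 tested, with a median of 0.14. The largest among these 6 were Draxin, a secreted netrin-binding repellent, at 0.23 (limma adjusted p = 0.286), the netrin receptor Neo1 at 0.18 (adjusted p = 0.315), and the UNC5-binding Flrt3 at 0.17 (adjusted p = 0.222). The locus listed as Flrt3 spans 1997.6 kb, and whether its value is that of Flrt3 alone was not tested. Neo1, close kin of DCC, read 34.1, 40.3 and 39.8 FPKM in WT and 40.2, 44.4 and 44.4 FPKM in KO. It thus stood well above Dcc itself, in both genotypes.

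Effectors of Eph receptors and ephrins held 1 higher gene and 4 lower genes among 25 tested, with a median of -0.01. The gene with the lowest p was Chn1, which encodes chimaerin 1, a Rac-inactivating protein that acts downstream of EphA4. It read 57.3, 56.2 and 52.4 FPKM in WT and 47.8, 43.9 and 41.8 FPKM in KO, so all KO libraries lay below all WT libraries (log2 difference -0.31, SE 0.06, limma p = 0.000768, adjusted p = 0.0768, exact permutation p = 0.1). Also lower were Ptpro, a phosphatase of Eph receptors, at -0.18, and Ngef, which encodes the EphA exchange factor ephexin, at -0.15. Itsn1, an exchange factor for Cdc42 that works with EphB2, was higher at 0.27 (limma adjusted p = 0.251). WT and KO libraries overlapped for Ngef and Itsn1 but not for Ptpro.

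Slit and Robo effectors held 2 higher genes among 11 tested, Srgap2 at 0.21 (limma adjusted p = 0.176) and Srgap3 at 0.16, both of the srGAP family that binds the Robo tail, with a median of 0.02. Netrin effectors held 2 higher genes and 1 lower gene among 14 tested, with a median of 0.09. Higher were Trio, a Rac exchange factor of the DCC pathway, at 0.22 (limma adjusted p = 0.288), and the actin regulator Vasp at 0.22 (adjusted p = 0.32). Wasl, which encodes N-WASP, was lower at -0.18 (adjusted p = 0.221). WT and KO libraries overlapped for Trio and Vasp but not for Wasl. The adjusted p-values of Trio, Vasp and Wasl were all well above 0.05.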

How the data were processed

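RNA-seq was done on total RNA from whole primary hippocampal cultures, with 3 libraries of each genotype, grouped by their labels. Per the methods of the study, the authors trimmed reads with Fastx Clipper and sickle, mapped them to GRCm38 with TopHat2 and built genes with Cufflinks and Cuffdiff. No source used here states tool versions, annotation, strand or scaling. The deposited table holds FPKM per library made by the authors, beside group FPKM, fold changes, p-values and q-values of their own comparison, which were not used.

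FPKM are not counts, so depth is unknown and no count test was run. Limma 3.58.1 in R 4.3.3 was fitted on log2(FPKM + 0.1) to all 13195 loci with a mean of at least 1 FPKM in either genotype, with a single genotype term, a trend of variance with mean and adjustment by Benjamini-Hochberg. This scale understates changes of low genes. The steps were tested on simulated data. Single values were compared by two-sided exact permutation tests.

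Members, pathway lists and marker lists were chosen with earlier results of these data known. Every library is given for genes with an unadjusted p under 0.05, genes without overlap and the most abundant gene of each role. Of a pathway list, at most the 3 largest changes in each direction are named. Further library values (Slit3, Ntn1, Ntn4, Dcc, Neo1, Chn1) were chosen after their values were seen. Alternatives changed the pseudocount, the FPKM minimum, centring, the length trend, the mean-variance trend and the replicate block, and left out each library in turn. Locus starts in the table count from 0 and are printed from 1.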

Additional observations from a re-analysis of the deposited data

How the results depend on the processing

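No guidance gene reached an adjusted p of 0.05 under any of the 14 alternatives; the lowest was 0.114. The 32 genes gave 438 values under these alternatives, of which 11, in 8 genes with differences of at most 0.09, changed sign, all on leaving out 1 library. Leave-one-out ranges of those log2 differences were -0.08 to 0.06 for Epha7, -0.04 to 0.10 for Ephb3, -0.02 to 0.15 for Slit1, -0.09 to 0.02 for Slit2, -0.21 to 0.03 for Slit3, -0.10 to 0.05 for Robo1, -0.13 to 0.01 for Dcc and -0.04 to 0.04 for Unc5b. Over the leave-one-out fits, the count of guidance genes higher in KO at an unadjusted p under 0.05 (3 from all libraries) ran from 1 to 5, the count lower (1) from 0 to 3, and the pathway count (16) from 6 to 16. Their median ran from 0.01 to 0.07. Genes that came under an unadjusted p of 0.05 in at least one of these fits, though not from all libraries, were Epha4, Epha5, Epha6, Ephb1, Ephb6, Efna2, Efna3, Slit3, Robo2 and Ntn4. With no FPKM minimum the higher count was 1. With a minimum of 5 FPKM it was also 1 and the median was -0.01, since 22 genes were then tested and neither Epha8 nor Efnb1 was among them. Removing the length trend gave 2 lower genes. Limma without the mean-variance trend gave 0 lower genes and 9 pathway genes, for which the cause was not tested. These counts differ in which genes they hold.

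Replicate numbers are shared between genotypes, but the deviations of same-numbered libraries correlated at 0.243, 0.0577 and 0.0801, so the numbers were not taken to pair the libraries. With the replicate block, 4 guidance genes were higher (Ntn4 was added) and 1 was lower, 0 passed an adjusted p of 0.05, and the median was 0.06. In that fit, 22 of the 62 tested pathway genes (35.5%) and 18.7% of all loci had an unadjusted p under 0.05. Unknown depth and 3 libraries a group limit all of these values: the median 95% interval spanned 0.18 on the log2 scale to each side.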
